A study of Mus musculus with 2 samples.

Results

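The 46 genes described here make and use glutathione, answer to the transcription factor NRF2, or detoxify foreign and oxidised compounds by routes other than cytochrome P450. They were fixed by name, and every non-control probe whose RefSeq accession belongs to one of them was taken. This gave 67 probes for all 46 genes, out of 27235 named probes of 20660 genes. RNA came from mouse lung epithelial cells labelled Mob1DKO or WT, with 1 array for each label, and both samples carry the strain label C57BL/6 and an age of 10 weeks. Mob1DKO is not spelled out in the labels and is read here, from knowledge of the line, as loss of Mob1a and Mob1b, which encode Hippo pathway adaptors that activate LATS kinases. The alleles, any Cre driver, the sex of the mice and the number of mice per sample are not given in the sources used here. The comparison asks how gene expression of lung epithelial cells differs between the labels, and with 1 array a group it has no replicate check and no test.

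Glutathione is a small cysteine-containing peptide that cells use as their main soluble antioxidant. Glutamate-cysteine ligase and glutathione synthetase build it, glutathione peroxidases spend it on peroxides, glutathione transferases join it to reactive chemicals, and glutathione reductase restores the reduced form. NRF2, encoded by Nfe2l2, is held in the cytoplasm and marked for degradation by KEAP1. When electrophiles or oxidants modify KEAP1, NRF2 reaches the nucleus and raises many of these genes. In the airway, non-ciliated club cells are known for a high content of detoxifying enzymes, and alveolar type 2 cells also carry antioxidant enzymes.

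A level is the log2 of the scanner's background-subtracted signal minus the 75th percentile of that array, so a level of 0 lies at that percentile. A difference is the Mob1DKO level minus the WT level, and levels of different probes are not compared. A gene is called when it differs by at least 2-fold, a log2 difference of 1, and is well above background on the brighter array. That percentile was 291 for Mob1DKO and 155 for WT, 58.6% and 53.1% of probes were well above background, and no spot was saturated. Probes printed at 10 spots gave a technical SD for a difference of 0.36 where the mean level is below 0 and of 0.089 elsewhere. It covers spot noise within the arrays and leaves out the spread between mice and between RNA preparations. Of the targeted genes, the Mob1b probes differed by −2.0 and −2.70 and the Mob1a probe by 0.07. The positions of these probes were not used here, so the Mob1a value checks no deletion. The Y-linked genes Ddx3y and Eif2s3y were at least 22.7-fold and 29.6-fold higher in Mob1DKO, where WT did not clear background. Xist, the RNA of the inactive X chromosome, was 4.65-fold and 4.90-fold lower on its probes, which cleared background on both arrays. Sex and genotype therefore cannot be told apart in any difference given here.

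Nearly the whole detoxification set was at a similar level on both arrays, and the mu class glutathione transferase Gstm6 was the exception. All 46 genes cleared background on each array, and 42 of them lay at or above the 75th percentile on both. None was called higher, beside 3.79% of the 15099 genes measured. Gstm6 was called lower, which is 2.17% of the members beside 2.91% of all measured genes called lower and 6.7% called in either direction. Of the genes that cleared background on each array, 2.68% were called. The members' median difference was −0.05 and that of all measured genes 0.02. Below 0 lay 27 members and 19 lay above, beside 7054 and 8045 of all measured genes. Without scaling between the arrays 45 members lay above 0 and Gstm6 below it, so each direction given here is relative to the scaling. The added spike-in transcripts, 8 of which cleared background on each array, were 2.5-fold brighter in WT at the median, and the 75th percentile per spike-in was 4.69-fold higher in Mob1DKO. Scaled on these transcripts, all genes had a median of 2.25 and the members of 2.18, 45 members passed 2-fold upward, and Gstm6 was at −0.90 and not called. The gap between both medians was −0.08 with either scaling, which is fixed in advance because each scaling shifts an array by a constant. It was −0.02 with quantile normalization or a loess fit of differences on level, and 0.17 with the normexp background correction. The values thus describe members against the other genes of the same array and not amounts per cell. The interquartile range ran from −0.17 to 0.05 for the members and from −0.18 to 0.22 for all genes. A difference under 0.2 in size was measured for 32 of the 46 genes, and 14 genes differed by more than 2 technical SD, 10 of them downward. The matching counts over all genes were not taken, so these counts do not set the members apart from other genes.

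**Figure D1:**
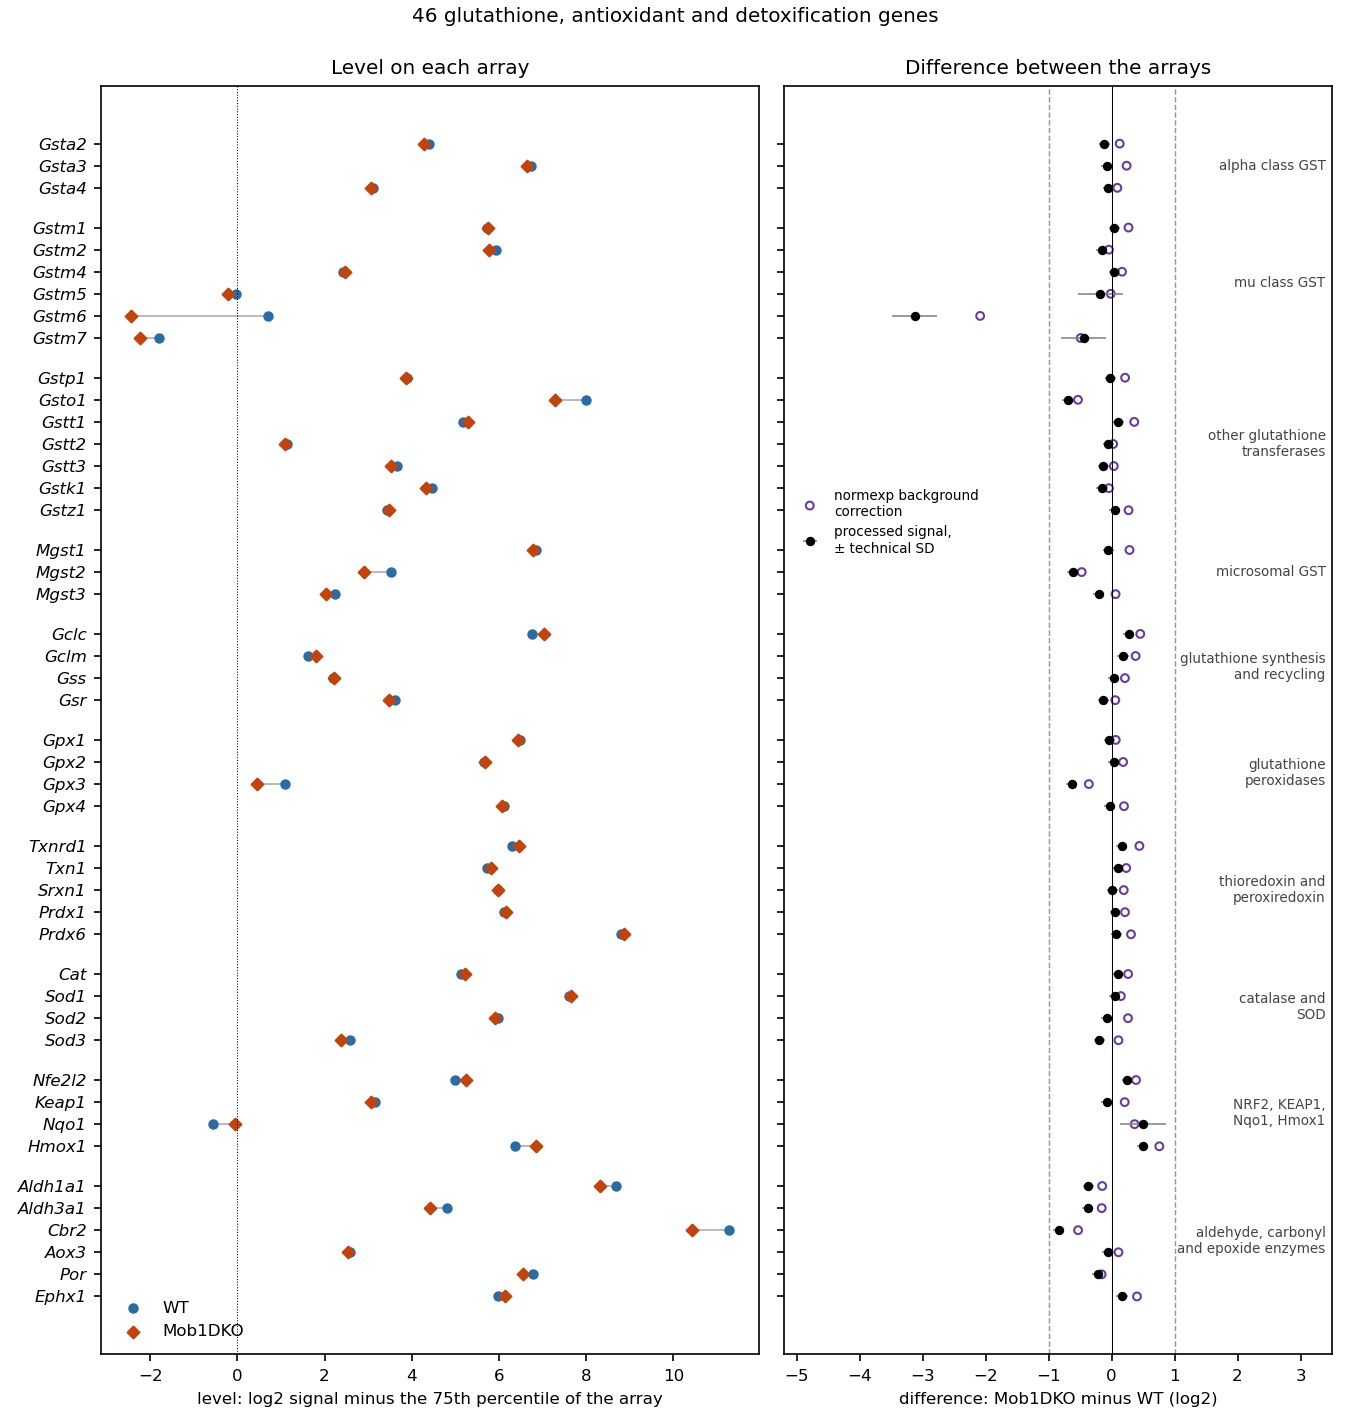
The left panel gives the level of each gene on the WT array (circles) and the Mob1DKO array (diamonds), in log2 units over the 75th percentile, with genes grouped by role. The right panel gives the difference, Mob1DKO minus WT, with bars of 1 technical SD, and open circles for the normexp background correction; dashed lines mark 2-fold. Gstm6 is the gene beyond a dashed line, at −3.13.

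**Figure D2:**
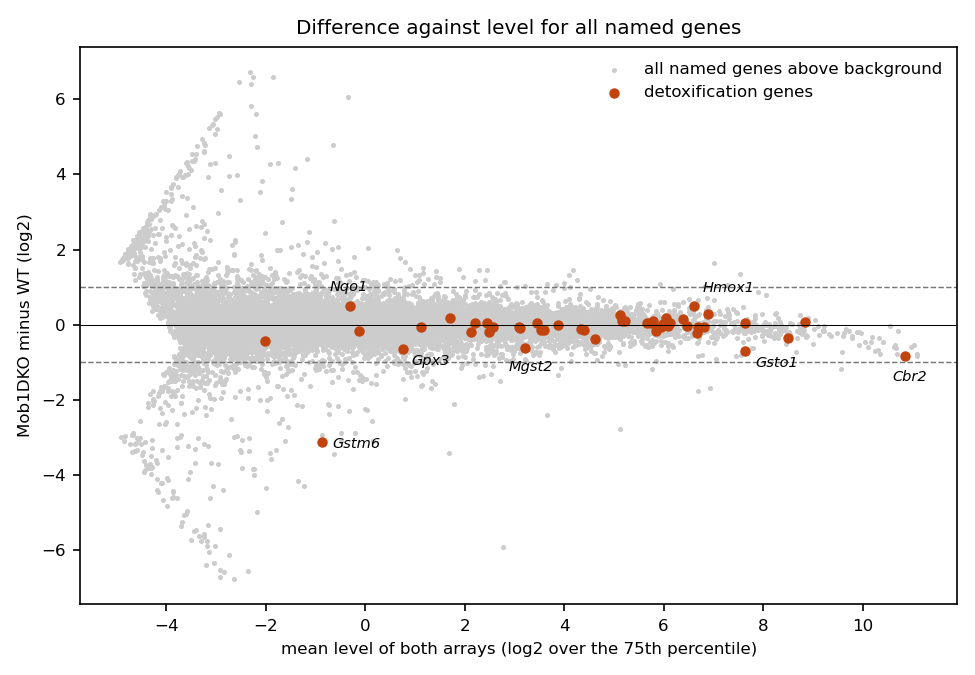
Each point is a named gene well above background on at least 1 array, placed by its mean level on both arrays (x axis, log2) and its difference, Mob1DKO minus WT (y axis, log2). The 46 detoxification genes are in orange, and dashed lines mark 2-fold; the scatter of all genes widens toward low levels, and Gstm6 lies at −3.13 among them.

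Gstm6 encodes a mu class glutathione transferase, a cytosolic enzyme that joins glutathione to electrophiles. Its brightest probe read −2.44 in Mob1DKO and 0.69 in WT, a difference of −3.13 or 8.74-fold lower. A second probe read −3.09 and −0.12, a difference of −2.97. The third read −4.19 in Mob1DKO, which did not clear background, and −1.73 in WT, which makes it at least 5.16-fold lower. All 3 probes were thus lower on the Mob1DKO array by more than 2-fold, and each gap exceeded the technical SD of 0.36. With the model-based normexp background correction, which also adds an offset, Gstm6 differed by −2.09. Genes with a mean level from −2 to 0, where Gstm6 lies, were called in 4.67% of cases, against 1.90% from 0 to 2. The sequences of the probes were not used here, so signal shared with near-identical mu class genes was not checked.

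The other mu class genes did not share this difference, although they are neighbours of Gstm6. In the RefSeq gene order of mouse assembly GRCm38.p6 the cluster on chromosome 3 runs Gstm5, Gstm7, Gstm6, Gstm3, Gstm2, Gstm1 and Gstm4. Gstm7, next to Gstm6 on one side, is printed at 10 spots and had a mean level of −2.25 ± 0.23 (SD of spots) in Mob1DKO and −1.82 ± 0.26 in WT. The gap between these spot means was −0.44 with an SE of 0.11 from spots alone, and its second probe differed by −0.29. Gstm3, on the other side, is not among the 46 genes and differed by −0.05. Gstm2 read 5.77 in Mob1DKO and 5.93 in WT, a difference of −0.16, and its further probes differed by −0.13 and 0.15. Gstm1 read 5.76 and 5.72, a difference of 0.04, and its second probe differed by 0.21. Gstm4 differed by 0.05 and by −0.38 on a fainter probe, and Gstm5 by −0.18. Of the mu class genes, Gstm6 was therefore the one whose arrays stood more than 2-fold apart.

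**Figure D3:**
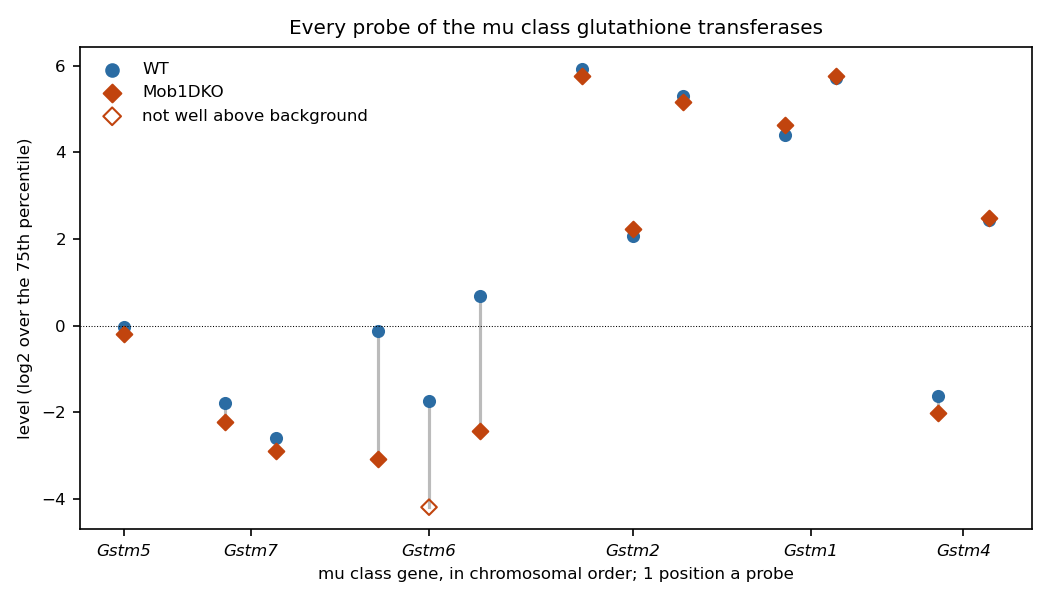
Levels (y axis, log2 over the 75th percentile) of every probe of the mu class members on the WT array (circles) and the Mob1DKO array (diamonds), in chromosomal order with Gstm3 left out; an open symbol is not well above background. The 3 Gstm6 probes are the ones with long connecting lines, from −2.46 to −3.13, while both probes of Gstm7 differ by −0.44 and −0.29.

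The sequence before the start of Gstm6 is shown beside that of its neighbour Gstm3 because these adjacent genes differed so unequally between the arrays. The table of promoters (RefSeq, GRCm38.p6) gives several starts for Gstm6, and the 250 bases before the most distal pair follow, with those before the start of Gstm3. They lie at chr3:107943735-107943984 and chr3:107953467-107953716 for Gstm6 and at chr3:107969175-107969424 for Gstm3, all on the minus strand and written 5′ to 3′. Capitals mark the longest run that the Gstm6 windows share.
Gstm6, first window: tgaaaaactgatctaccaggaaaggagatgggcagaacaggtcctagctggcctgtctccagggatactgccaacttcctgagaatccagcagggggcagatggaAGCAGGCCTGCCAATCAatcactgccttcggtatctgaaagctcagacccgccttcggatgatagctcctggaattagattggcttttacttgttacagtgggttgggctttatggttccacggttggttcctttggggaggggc
Gstm6, second window: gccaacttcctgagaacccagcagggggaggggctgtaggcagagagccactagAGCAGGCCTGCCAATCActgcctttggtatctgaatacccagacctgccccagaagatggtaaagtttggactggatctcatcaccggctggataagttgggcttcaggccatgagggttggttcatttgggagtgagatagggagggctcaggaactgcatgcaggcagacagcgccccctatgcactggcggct
Gstm3: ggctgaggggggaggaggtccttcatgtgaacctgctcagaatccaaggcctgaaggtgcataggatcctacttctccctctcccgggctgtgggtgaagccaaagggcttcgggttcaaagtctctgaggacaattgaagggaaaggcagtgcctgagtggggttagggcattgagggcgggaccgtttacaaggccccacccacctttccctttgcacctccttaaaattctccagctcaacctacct
The Gstm6 windows share a run of 17 bases, and the longest run that either shares with Gstm3 is 8 bases. The G and C content was 52.4% and 57.2% in the Gstm6 windows and 56.0% in that of Gstm3. Which start these cells use was not measured by the arrays.

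The alpha class transferases, which conjugate lipid peroxidation products such as 4-hydroxynonenal and reduce organic peroxides, were close on both arrays. Gsta3 read 6.65 in Mob1DKO and 6.72 in WT, a difference of −0.07, and its second probe differed by −0.12. Gsta2 read 4.27 and 4.39, a difference of −0.12. Gsta4, the enzyme best known for conjugating hydroxynonenal, is printed at 10 spots and read 3.07 ± 0.038 (SD of spots) in Mob1DKO and 3.12 ± 0.032 in WT, a gap of −0.05. The spots ranged from 3.0 to 3.13 and from 3.05 to 3.16, so they overlapped, while the gap between spot means had an SE of 0.016 from spots alone. All 3 genes lay slightly below 0, but at 0.09 to 0.24 with the normexp correction, so no direction holds for this class. The smaller scaling between arrays in that setting by itself adds 0.21 to the difference of any bright gene.

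Among the remaining soluble transferases, Gsto1 stood apart. Gsto1, an omega class enzyme that reduces dehydroascorbate and protein thiols, read 7.29 in Mob1DKO and 7.99 in WT, a difference of −0.69 or 1.62-fold lower. It differed by −0.53 with the normexp correction and by −0.57 after a loess fit of differences on level. Gstt1, a theta class enzyme, read 5.28 and 5.17, a difference of 0.11. Gstp1, the pi class enzyme, differed by −0.02 and −0.10 on its probes. Gstt2, Gstt3, the mitochondrial Gstk1 and Gstz1, an enzyme of tyrosine breakdown, differed by −0.15 to 0.05.

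Of the microsomal transferases, which are membrane proteins, Mgst2 differed most. Mgst2, which also makes leukotriene C4, read 2.91 in Mob1DKO and 3.53 in WT, a difference of −0.61 or 1.53-fold lower, and −0.47 with the normexp correction. Mgst1 read 6.78 and 6.84, a difference of −0.06, with −0.24 on its second probe. Mgst3 differed by −0.21 and −0.20 on its probes, but by 0.06 with the normexp correction.

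Genes for building glutathione leaned the other way by small amounts. Gclc, the catalytic subunit of the rate-limiting ligase, read 7.03 in Mob1DKO and 6.76 in WT, a difference of 0.27 or 1.21-fold higher. Gclm, its modifier subunit, differed by 0.18, and Gss, glutathione synthetase, by 0.04. Gsr, glutathione reductase, read 3.48 and 3.61, a difference of −0.13, and a second probe gave −0.14. Gclc and Gclm stayed above 0 under every setting tried, and Gsr turned to 0.06 with the normexp correction.

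Glutathione peroxidases were alike on both arrays apart from Gpx3. Gpx1, the general cytosolic enzyme, read 6.45 in Mob1DKO and 6.48 in WT, a difference of −0.04. Gpx4, which reduces lipid hydroperoxides in membranes and restrains ferroptosis, read 6.08 and 6.11, a difference of −0.03. The epithelial Gpx2, a classic NRF2 target, differed by 0.03. Gpx3, the secreted plasma form, read 0.45 and 1.08, a difference of −0.63 or 1.55-fold lower, and −0.36 with the normexp correction.

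The thioredoxin and peroxiredoxin genes and the enzymes for superoxide and hydrogen peroxide lay between −0.20 and 0.16. Prdx6, a peroxiredoxin with phospholipase activity that is abundant in type 2 and club cells, read 8.87 in Mob1DKO and 8.80 in WT, a difference of 0.07, and its other probes differed by 0.08, 0.14 and 0.43, the last on a faint probe. Txnrd1, cytosolic thioredoxin reductase, read 6.46 and 6.30, a difference of 0.16. Txn1, thioredoxin, differed by 0.10, Prdx1 by 0.06 and −0.11 on its probes, and Srxn1, the sulfiredoxin that repairs peroxiredoxins, by 0.01. Sod1, the cytosolic superoxide dismutase, read 7.65 and 7.60, a difference of 0.05. Sod2, the mitochondrial form, read 5.91 and 5.99, a difference of −0.07. Catalase (Cat) differed by 0.10 and 0.14 on its probes, and the extracellular Sod3 by −0.20. None of these genes reached 1.5-fold on any probe.

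None of Nfe2l2, Keap1, Hmox1 and Nqo1 was called, and 3 of these 4 genes lay above 0. Hmox1, heme oxygenase, which degrades heme and is induced by NRF2, read 6.86 in Mob1DKO and 6.36 in WT, a difference of 0.49 or 1.41-fold higher. A second Hmox1 probe differed by 0.50, and the value was 0.76 with the normexp correction. Nfe2l2 read 5.25 and 5.0, a difference of 0.25, and for Hmox1 and Nfe2l2 the gap exceeded 2 technical SD. Nqo1, a quinone reductase, read −0.05 and −0.55, a difference of 0.50 at a level where the technical SD is 0.36, which is under 2 technical SD. Keap1 read 3.08 and 3.15, a difference of −0.08 that turned to 0.21 with the normexp correction. Hmox1, Nqo1 and Nfe2l2 stayed above 0 under every setting. Of some other NRF2 targets in the set, Nqo1 at 0.50 was of the size of Hmox1. Txnrd1 at 0.16, Gpx2 at 0.03 and Srxn1 at 0.01 were smaller. The glutathione synthesis genes Gclc and Gclm were at 0.27 and 0.18. These genes are a choice and do not stand for all members that answer to NRF2. Aldh3a1 at −0.38, Gsr at −0.13, Gsta2 at −0.12 and Gsta3 at −0.07 lay below 0, as did 27 of the 46 members in all, beside 19 above.

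NRF2 acts through the antioxidant response element, so the promoter windows of the members were searched for its core, TGACNNNGC, on both strands. Its opening letters are shared with the AP-1 motif, and a match can belong to either. Windows of 300 bases, from 250 before to 50 after a start, were matched by symbol for 38 of the 46 genes. The core was present for 10 of these 38 genes (26.3%) and for 3781 of all 27025 genes in the table (14%), or in 19.2% of the members' windows against 12.4% of all windows. The members with a match had a median difference of 0.03, from −0.44 for Gstm7 to 0.25 for Nfe2l2, and the 28 without one had a median of −0.06. A match describes letters and is not a binding site, and neither Gstm6 window above holds one. The matches of Gclm, Txnrd1, Prdx1 and Nfe2l2, genes of glutathione synthesis, the thioredoxin system and NRF2 itself, are shown with their flanks (RefSeq, GRCm38.p6, 5′ to 3′ on the gene's strand), and capitals mark the core on either strand.
Gclm, chr3:122245403-122245451, plus strand: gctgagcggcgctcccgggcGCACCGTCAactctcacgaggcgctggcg
Txnrd1, chr10:82859094-82859142, plus strand: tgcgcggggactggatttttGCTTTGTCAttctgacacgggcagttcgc
Prdx1, chr4:116685446-116685494, plus strand: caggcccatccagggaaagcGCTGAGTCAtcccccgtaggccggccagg
Nfe2l2, chr2:75704875-75704913, minus strand: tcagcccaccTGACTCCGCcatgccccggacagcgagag
The core begins 134, 92, 133 and 240 bases before the start, in that order. The differences of these genes were 0.18, 0.16, 0.06 and 0.25. Of the genes whose matches are not shown, Gstm7, Gstm5, Gsta3 and Mgst1 differed by −0.44, −0.18, −0.07 and −0.06. Sod1 and Srxn1, the latter also of the thioredoxin system, differed by 0.05 and 0.01.

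Enzymes for aldehydes, carbonyls and drug oxidation leaned lower on the Mob1DKO array. Cbr2, a carbonyl reductase that is abundant in lung and especially in club cells, read 10.43 in Mob1DKO and 11.27 in WT, a difference of −0.84 or 1.79-fold lower. Its second probe read 8.71 and 8.97 and differed by −0.26, so the probes disagreed by 0.58. Aldh1a1, which oxidises retinal and other aldehydes, read 8.31 and 8.68, a difference of −0.37. Aldh3a1, which oxidises aromatic and lipid aldehydes, differed by −0.38 and −0.27 on its probes. Por, which passes electrons to cytochrome P450 enzymes, differed by −0.22. The aldehyde oxidase Aox3 was at −0.06, but at 0.11 with the normexp correction. Ephx1, the microsomal epoxide hydrolase, was higher by 0.17 on one probe and at −0.01 on the other.

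Signal strength moved with some of these values. The 20 brightest genes of the arrays all lay below 0, with a median of −0.59, and Cbr2 is among them. Genes with a mean level of 8 or more, 108 in all, had a median of −0.20, and the members in this range, Cbr2, Aldh1a1 and Prdx6, had a median of −0.37. Quantile normalization moved Cbr2 to −0.25 and Aldh1a1 to −0.17, against −0.61 and −0.21 after the loess fit. Gsto1, at −0.63, and Mgst2, at −0.62, moved little under quantile normalization.

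At a lower bar of 1.5-fold, 5 of the 46 genes (10.9%) were lower, namely Gstm6, Cbr2, Gsto1, Gpx3 and Mgst2, beside 6.75% of all measured genes, and none was higher beside 8.08%. The shares of all genes include many faint ones, while most members are bright. At 2-fold, 23.2% of genes with a mean level below −2 were called, against 0.79% from 2 to 4. Shares at 1.5-fold were not taken by level, so these counts do not set the members apart from genes of like level. With the normexp correction 1 of these 5, Gstm6, remained past 1.5-fold, and Hmox1 passed it upward. After the loess fit 4 of the 5 remained, without Gsto1, and Hmox1 again passed it upward, at 0.59. Of the 17 genes with several probes, 13 had probes of 1 sign, and the gap between a gene's probes was 0.16 at the median and 0.67 at most, for Gstm6.

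Other genes of the same pathways were read from 7 further lists of 128 genes, of which 124 had a probe and 112 were measured. In these, 2 genes were called higher and 5 lower (6.25%), near the 6.7% of all measured genes, and the median difference was −0.01. No gene was called among 12 measured partners and regulators of NRF2, 8 genes of NADPH supply, 18 of cysteine and glutathione transport and turnover, 17 other thioredoxin, peroxiredoxin and glutaredoxin genes, and 8 of iron and heme handling. Of 13 measured sulfotransferases, glucuronosyl transferases and other conjugating enzymes, 10 lay below 0, with a median of −0.37, and 2 were called. Sult4a1, a sulfotransferase best known from brain, was 5.67-fold lower on the measured one of its probes, and Sult1c2 at least 2.55-fold lower, both from faint signals. With the normexp correction Sult4a1 was at −1.15, and Sult1c2 was at −0.71 and no longer past 2-fold.

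Of 36 measured flavin monooxygenases, esterases, and aldehyde and carbonyl enzymes, 3 were called lower and 2 higher, with a median of −0.04. The carboxylesterase Ces2c, which cleaves ester drugs, was at least 21.6-fold lower on its brightest probe and at least 1.70-fold lower on another. Its remaining probe did not clear background on either array. Ces2e, a related esterase, was at least 2.57-fold lower on the measured one of its probes. Akr1c18, an aldo-keto reductase that inactivates progesterone, read −0.87 in Mob1DKO and 0.39 in WT, 2.40-fold lower. The called increases were Fmo4 and Aldh1a3, both measured on the Mob1DKO array alone, with bounds of at least 1.45-fold and 1.11-fold. With the normexp correction they were at −0.15 and −0.14. Genes of the further lists above background on neither array lay between −0.93 (Abcc2) and −0.38 (Aox4) in that setting. The negative signs of Fmo4 and Aldh1a3 are therefore not read as a reversal, and Sult1c2 and Ces2e lie within that range. Of the decreases, Ces2c was then at −2.47, while Ces2e at −0.84 and Akr1c18 at −0.94 were no longer past 2-fold.

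Markers of lung cell types were read beside these values. General epithelial markers were present and alike on both arrays, with all 7 above background and a median of 0.01. Of 8 club cell markers, 7 had a probe and were measured, 6 of them lay below 0 and 2 were called lower, with a median of −0.72. The summed signal of the club cell markers was 3877 times the 75th percentile in Mob1DKO and 6416 times in WT. Under quantile normalization their median was −0.25. All 7 goblet cell markers were called lower, with a median of −1.64 and summed signals of 66.9 and 284. The ciliated cell median was 0.05. The alveolar type 2 median was −0.29, but −0.03 under quantile normalization. The alveolar type 1 median, over 5 measured markers, was 0.28, with 0.34 under quantile normalization and 0.47 with the normexp correction. In bulk RNA, fewer cells of a type and less RNA per cell cannot be told apart, and the part of the club and goblet cell markers in the Cbr2, Aldh1a1, Aldh3a1 and Gstm6 values was not tested.

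Markers of other cells were read in the same way. Of 6 red cell genes, 5 had a probe and 4 were measured, all of them globins and all called lower, with a median of −3.51 and summed signals of 1.30 and 13.9. Catalase and Gpx1, which red cells also carry, differed by 0.10 and −0.04. Of 9 leukocyte markers, 5 were measured, with a median of −0.01 and summed signals of 247 and 256. Most of both sums is the signal of Itgam, which read 7.88 in Mob1DKO and 7.93 in WT, so they say little about leukocytes in general. Ptprc, the pan-leukocyte CD45 gene, and Laptm5 did not clear background on either array. Cd79a, a B cell gene, was at least 3.38-fold higher, but differed by 0.20 with the normexp correction. The macrophage genes Csf1r and Marco differed by −0.01 and 0.19, and by 0.27 and −0.28 with the normexp correction. Marco was faint, at −2.61 in Mob1DKO and −2.80 in WT. Hmox1, which macrophages also express, differed by 0.49, and the part of macrophages in this value was not tested. Of 7 endothelial markers 4 were measured, with a median of −0.02 and summed signals of 31.6 and 44.5, and Cdh5, Tek and Tie1 were not above background. The 7 fibroblast and smooth muscle markers had a median of 0.06 and summed signals of 98.2 and 102, with Lum at least 2.22-fold higher, though at 0.06 with the normexp correction. Of 5 hepatocyte genes 3 were measured, namely Alb and Cyp3a11 on both arrays and Serpina1a on the WT array alone. Alb differed by 0.07 and Cyp3a11 by −0.07. Apoa1 and Ttr did not clear background on either array, and the summed hepatocyte signals were 1.16 and 1.19.

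**Figure D4:**
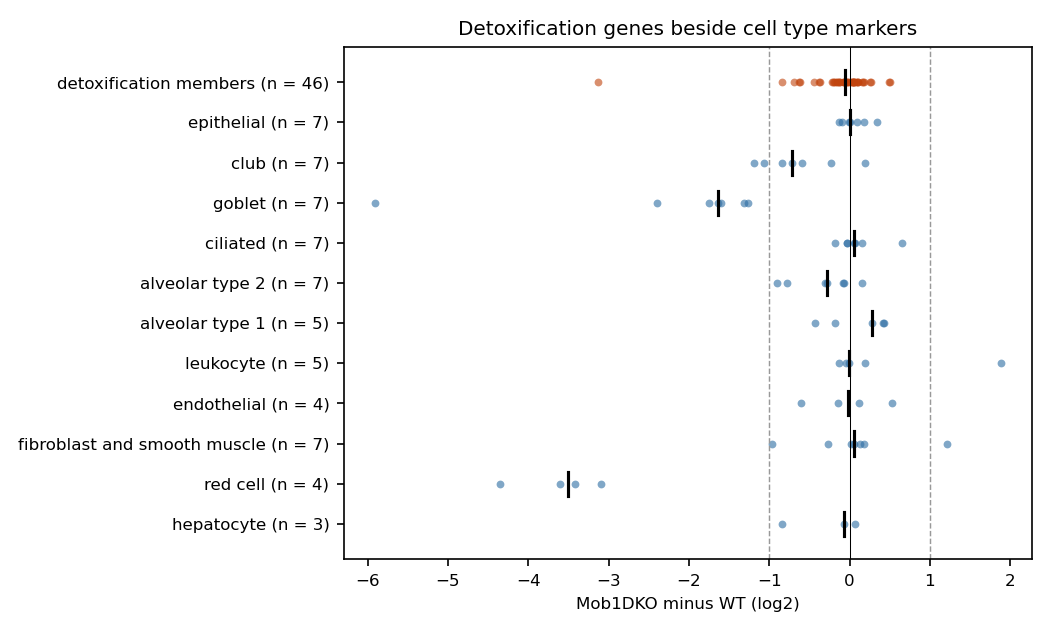
Differences, Mob1DKO minus WT (x axis, log2), of the 46 detoxification genes (top row) and of the measured markers of each cell type; each point is a gene, black bars are medians and dashed lines mark 2-fold. The median is −0.05 for the detoxification genes, −0.72 for club cell, −1.64 for goblet cell and −3.51 for red cell markers.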

How the data were processed

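Per the labels' protocols, RNA of 1 Mob1DKO and 1 WT sample was amplified and Cy3-labelled, and each was read on an Agilent mouse array. The deposited scanner files give intensity per spot, extracted with Agilent Feature Extraction 10.7.1.1 per the file headers (9.5.1.1 per the submitters' processing notes), and flags with values of 0 or 1. The deposited processed signal is background-subtracted and not normalized between arrays. The deposited value table holds an intensity with the same sorted values in both columns; the steps behind it are not stated.

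Spots were averaged per probe, control spots left out, and log2 taken minus the 75th percentile over 55681 probes. Probes were named by RefSeq accession, and a gene takes its brightest probe well above background on at least 1 array. Where the dimmer array is not well above background, the fold is a bound against the higher of its own value and the lowest value well above background there. No tests were run, since 1 array a group leaves no residual degrees of freedom; the precision is limited by the number of arrays. Named genes are each called member, the 2 brightest of each role group, and up to 3 called genes a further list; other members are added for their role, and Gstm3 as a neighbour. Members and lists were chosen with earlier results of these data known. Scaling and calling were tested on simulated data. Software was Python 3.11.15, numpy 2.4.6, pandas 2.3.3, statsmodels 0.14.6, R 4.3.3 and limma 3.58.1. Alternatives were other scalings, normexp (offset 50), the value table, other filters, other probe rules, removal of outlier spots and other folds; loess (span 0.3) and spike-in scaling were chosen after seeing the data.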

Additional observations from a re-analysis of the deposited data

How the results depend on the processing

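Gstm6 was called lower under 13 of 14 alternatives, the exception being spike-in scaling, and ranged from −3.16 to −2.09 relative to the median of all genes. The median of the members stayed within 0.089, the technical SD of bright probes, of its value of −0.05 under 9 of 12 alternatives. It was 0.86 without scaling, where the median of all genes was 0.93 and 10 members passed 2-fold upward, and 0.17 with normexp. With spike-in scaling, chosen after seeing the data, it was 2.18, with 45 members called higher and 0 lower; no test was run in any of these settings. With normexp the scaling between arrays was 0.70 in place of 0.91, and 34 of 46 members lay above 0 in place of 19. The smaller scaling by itself adds 0.21 to the difference of every bright gene, so normexp values of bright members share this shift. That setting also changes the background model, the offset and the spot signal together, and their separate parts were not tested. At 1.5-fold, 5 members were lower. No alternative called a member higher other than spike-in scaling and no scaling. Normexp used the median spot signal, since no mean spot signal is in the files used here, and naming by accession alone was already the main rule, so that alternative was not run. No paired analysis was possible because each group holds 1 array. Faint signals limit the folds of Gstm5, Gstm6, Gstm7 and Nqo1, at levels where the technical SD of a difference of single spots is 0.36. Gstm7 averages 10 spots, with an SE of 0.11 from spots alone.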
